A study of Mus musculus with 9 samples.

Results

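The macrophage and myeloid genes described here are a module of 37 genes, given as 38 symbols because Adgre1 and its older name Emr1 are the same gene. Members were the entries of the expression table whose symbol was on the list. The table held 36 of them among 19435 genes, and Clec7a was not analysed here. Poly-A RNA had been sequenced from 4 primary tumors of mouse oviduct with the Dicer1ko/D1693N genotype and from 5 oviducts, of which 3 were Dicer1+/D1693N (oviducts 1 to 3) and 2 were Dicer1+/+ (oviducts 4 and 5). Neither set received a treatment. The tumors and the Dicer1+/D1693N oviducts share the D1693N allele, which changes the RNase IIIb domain of the miRNA-processing enzyme DICER1, and the Dicer1+/+ oviducts do not carry it. The driver of the knockout allele, the ages and strains of the mice and whether each library came from a separate mouse are not given in the sources used here, so p-values measure the spread between these libraries.

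Macrophages are phagocytes of the myeloid lineage. Their growth and survival depend on the receptor CSF1R and its ligands, and the transcription factor PU.1, encoded by Spi1, holds their identity by binding sites with the core GAGGAA. They take up immune complexes, dying cells and lipid through Fc, scavenger and lectin receptors, several of which signal through the ITAM adaptors encoded by Tyrobp and Fcer1g, and break the cargo down in lysosomes. Resident macrophages of many tissues carry CD163, FOLR2 and the mannose receptor MRC1, while TREM2, GPNMB and APOE are known from lipid-laden macrophages, also within tumors.

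Promoters of 26 of the 36 members had an entry in the RefSeq promoter set (build GRCm38.p6, 300 bases with 250 before the start). The core GAGGAA was searched on both strands. Of these 26 genes, 17 held at least 1 match (65.4%), against 31.3% of 27025 genes with an entry. The windows of 30 bases below each surround a match upstream of the RefSeq start in 5 members that rose in the tumors, and are shown so that the element can be read in its setting. Capitals mark the core as GAGGAA or, where it lies on the opposite strand, as TTCCTC. The windows lie at chr11:69666378-69666407 (minus strand, Cd68), chr3:95526610-95526639 (plus, Ctss), chr3:96294007-96294036 (minus, Fcgr1), chr4:130913266-130913295 (plus, Laptm5) and chr17:48346349-48346378 (plus, Trem2).
Cd68: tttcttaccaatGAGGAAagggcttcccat
Ctss: gacacagggttgGAGGAAaactttgtcctg
Fcgr1: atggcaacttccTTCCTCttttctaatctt
Laptm5: gcagcctgtggcTTCCTCttttttgttctg
Trem2: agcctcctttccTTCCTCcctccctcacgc
The match ended 32 bases before the RefSeq start in Laptm5, 34 bases before it in Trem2 and 219 bases before it in Cd68. The GENCODE span of Laptm5 begins at 130913125, so its window lies inside that span and is upstream of the RefSeq start only. Cd68 and Ctss each held 2 matches, of which 1 was upstream and is shown. Among members with an entry, 8 of 13 that rose and 9 of 13 that did not pass the test held the core. A match is a description of letters and not of binding.

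Values below are normalized counts, the reads of a gene divided by the size factor of its library, and a change is the log2 value in tumors minus that in oviducts, ± SE, on the scale of the deposited table. The tumor libraries held 8732190 to 11267144 reads and the oviduct libraries 8504993 to 12526078. Tumor 3 had 3053 genes without a read, against 1369 to 1945 in the other tumors and 595 to 877 in the oviducts. Ovgp1, the oviductal glycoprotein, stood at 111.5 to 11678.2 in the tumors and at 78143.7 to 150619.0 in the oviducts, and Pax8, a factor of the Müllerian epithelium, at 413.2 to 1231.0 in the tumors and 1114.2 to 1587.1 in the oviducts. Libraries also stood apart for other tissues. Fat cell genes summed to 72686 in tumor 4 and to at most 121.4 in the other tumors, against 1607.4 to 10627.5 in the oviducts, and red cell genes summed to 49669.7 in tumor 1 and to at most 1704.5 in every other library. In bulk tissue, a different share of macrophages, a different amount of a transcript per macrophage and transcripts from other cells cannot be told apart.

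The comparison of tumors with oviducts asks which macrophage genes differ between the tumor and the organ it arose in. Of the 36 members, 17 rose in the tumors and 0 fell (limma, adjusted p under 0.05 over all genes and a log2 change of at least 1), against 6.53% of all genes higher and 12.1% lower. The changes of 34 members were positive, with a median of 1.28, against -0.05 over all genes. The 20 members with an unadjusted p under 0.05 were all higher in the tumors, and limma-voom called 13 higher and 0 lower. Every tumor stood above every oviduct in 8 members, against 10.8% of all genes: Cd68, Lyz2, Fcgr1, Fcgr3, Msr1, Apoe, Trem2 and Ms4a7. In 17 others 3 tumors did, and in 16 of these the remaining tumor was tumor 3. The share of all genes with 3 tumors above every oviduct was not counted, so both counts are description only. With the 3 Dicer1+/D1693N oviducts as the sole controls 6 members rose and 0 fell, against 4.43% of all genes higher and 10.6% lower. With the 2 Dicer1+/+ oviducts alone 0 rose and 0 fell, against 1.84% of all genes higher and 6.06% lower, and 13 members had an unadjusted p under 0.05. Without tumors 1 and 4, an alternative added after the red cell and fat cell sums were seen, 7 rose and Cd163 fell, against 8.07% of all genes higher and 14.0% lower.

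**Figure D1:**
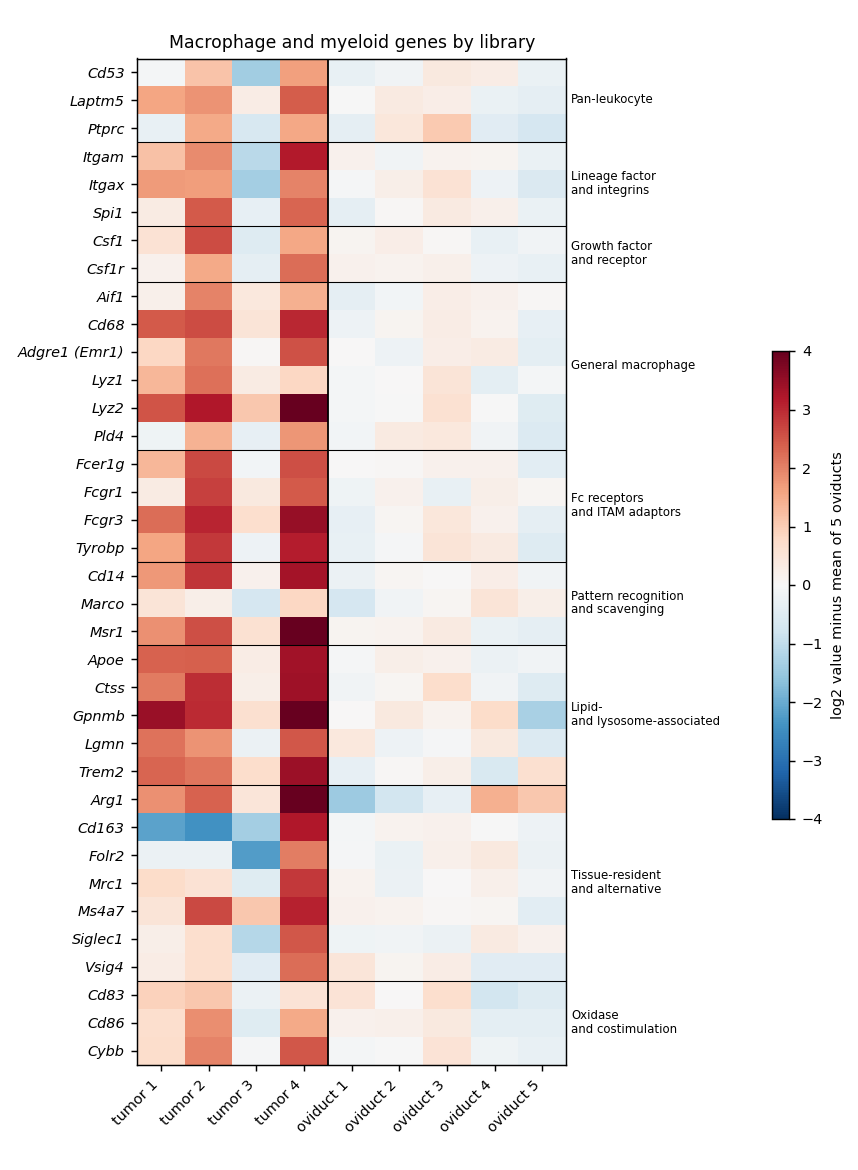
Heat map of the 36 measured members, grouped by role, in 4 tumors and 5 oviducts. Color gives the log2 value in a library minus the mean of the 5 oviducts and saturates at 4. Tumors 2 and 4 are red in most members, with 33 and 35 of them above the highest oviduct, and Cd163 is blue in tumors 1 to 3. Tumor 3 is above the highest oviduct in 9 members and below the lowest in 10, against 33.5% and 40.0% of all genes.

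The tumors differed from each other more than the oviducts did. The SD of the log2 values was larger among tumors than among oviducts in 35 of the 36 members, which was also so in 84.0% of all genes, and its median over the members was 1.27 in tumors and 0.32 in oviducts. Tumor 4 lay above the highest oviduct in 35 members, tumor 2 in 33, tumor 1 in 25 and tumor 3 in 9, against 32.6%, 33.9%, 33.8% and 33.5% of all genes. Tumor 3 also lay below the lowest oviduct in 10 members, against 40.0% of all genes. The median member stood 2.48 above the mean of the oviducts on the log2 scale in tumor 4, 2.05 above it in tumor 2 and 0.88 above it in tumor 1, and was at -0.16 in tumor 3, where the median of all genes was -0.16 as well. Tumor 4 was the highest tumor in 28 members (25.9% of all genes) and tumor 3 the lowest in 32 (29.1% of all genes). Without tumor 3, 27 members rose, among them Itgam, Itgax, Spi1, Csf1 and Csf1r, and 0 fell, against 7.53% of all genes higher and 12.2% lower. The part of the libraries' depth, fat cell or red cell transcripts in this order was not tested.

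Among the pan-leukocyte genes, which mark all white blood cells, Laptm5 alone rose. Laptm5 encodes a lysosomal membrane protein of blood cells (ENSMUSG00000028581.17, GRCm38 chromosome 4, 130913125 to 130936141, plus strand). The gene had 1728.6, 2032.7, 694.7 and 3168.6 normalized counts in tumors 1 to 4, against 565.9, 737.4, 686.6, 470.8 and 435.4 in oviducts 1 to 5, a change of 1.52 ± 0.37 (adjusted p = 0.0101). Tumors 1, 2 and 4 lay above every oviduct, and tumor 3 below oviduct 2. Ptprc, which encodes the leukocyte surface phosphatase CD45, had 311.7, 1150.3, 239.8 and 1177.9 in the tumors and 298.0, 538.3, 823.9, 277.5 and 233.3 in the oviducts (0.53 ± 0.53, adjusted p = 0.483). Its groups overlapped, with tumors 1 and 3 below oviducts 2 and 3. Cd53, a tetraspanin of leukocytes, ranged over 125.0 to 1184.2 in tumors and 289.1 to 482.6 in oviducts (0.33 ± 0.52, adjusted p = 0.667), and its difference was -0.11 without tumor 4.

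The lineage genes split by tumor. Spi1 had 134.0, 646.1, 77.7 and 587.9 normalized counts in the tumors, against 74.8, 106.3, 136.3, 121.0 and 81.5 in the oviducts (1.20 ± 0.54, adjusted p = 0.119). Tumors 2 and 4 were high, and tumors 1 and 3 lay within the oviduct range. The integrin chains Itgam (CD11b) and Itgax (CD11c) followed with 69.8 to 1706.8 and 22.5 to 398.6 in tumors, against 138.4 to 196.5 and 51.4 to 140.3 in oviducts, and changes of 1.28 ± 0.66 and 0.99 ± 0.62 (adjusted p = 0.168 and 0.251). For these integrins tumor 3 lay below every oviduct and the other tumors above every oviduct. By limma 0 of these 3 genes passed, none had an unadjusted p under 0.05, and without tumor 3 all of them did pass, with changes of 1.70 for Spi1, 2.07 for Itgam and 1.78 for Itgax.

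Csf1r, the receptor on which macrophages depend (ENSMUSG00000024621.16, chromosome 18, 61100598 to 61132149, plus strand), had 719.6, 1866.9, 492.0 and 3077.1 normalized counts in the tumors and 717.7, 714.2, 733.3, 554.9 and 519.1 in the oviducts (0.88 ± 0.45, adjusted p = 0.166). Tumors 2 and 4 exceeded every oviduct, tumor 1 stood within their range and tumor 3 below it. Its ligand Csf1 had 579.8, 2438.1, 261.2 and 1152.6 in the tumors, against 415.2, 458.9, 393.0, 308.9 and 343.9 in the oviducts (1.06 ± 0.50, adjusted p = 0.135). The tumor highest in ligand was tumor 2 and the tumor highest in receptor was tumor 4. Per 100 counts of Csf1r, Csf1 held 37.5 to 131 counts in tumors and 53.6 to 66.2 in oviducts. Il34, the other ligand of the receptor, ranged over 3.4 to 207.2 in tumors and 63.6 to 95.9 in oviducts (-0.33 ± 0.58, adjusted p = 0.705). Neither growth factor gene nor the receptor passed the test, at an adjusted or an unadjusted p under 0.05.

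Of the 6 general macrophage genes, 4 rose. Lyz2, the lysozyme of macrophages and neutrophils (ENSMUSG00000069516.8, chromosome 10, 117277331 to 117282321, minus strand), had 9786.1, 15627.8, 3548.7 and 27865.6 normalized counts in the tumors, against 1580.6, 1666.5, 2577.2, 1660.9 and 1181.2 in the oviducts, a change of 2.71 ± 0.49 (adjusted p = 0.00228). The groups did not overlap, and tumor 3 stood nearest to the oviducts. Cd68, a lysosomal glycoprotein of macrophages (ENSMUSG00000018774.13, chromosome 11, 69664213 to 69666153, minus strand), had 949.8, 1064.0, 230.8 and 1416.6 in the tumors, against 132.8, 169.2, 194.0, 172.1 and 120.6 in the oviducts (2.16 ± 0.43, adjusted p = 0.00397). Here too every tumor lay above every oviduct. Emr1, which encodes the F4/80 antigen of mouse macrophages, ranged over 231.9 to 1417.6 in tumors and 167.5 to 286.1 in oviducts (1.39 ± 0.45, adjusted p = 0.0385). Its call ended in 7 of the 9 fits that left out a library, among them those without tumor 2 or 4.

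Lyz1, the lysozyme gene next to Lyz2, had 74.8, 154.4, 29.3 and 48.4 in the tumors, against 17.9, 20.2, 34.8, 11.8 and 17.9 in the oviducts (1.17 ± 0.37, adjusted p = 0.0328). It held 0.174 to 0.988 counts per 100 counts of Lyz2 in tumors and 0.71 to 1.51 in oviducts. The 2 genes are near-identical in sequence and reads between them can be split or lost, so the value of Lyz1 is uncertain. Its call ended in 6 of the 9 fits, among them those without tumor 1 or 2. Aif1, which encodes the actin-binding protein IBA1, had 86.4 to 346.4 in tumors and 52.5 to 90.5 in oviducts (1.01 ± 0.36, adjusted p = 0.0539), and Pld4, a lysosomal exonuclease, had 175.6 to 823.4 in tumors and 150.7 to 311.4 in oviducts (0.66 ± 0.44, adjusted p = 0.279). Neither of them passed.

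**Figure D2:**
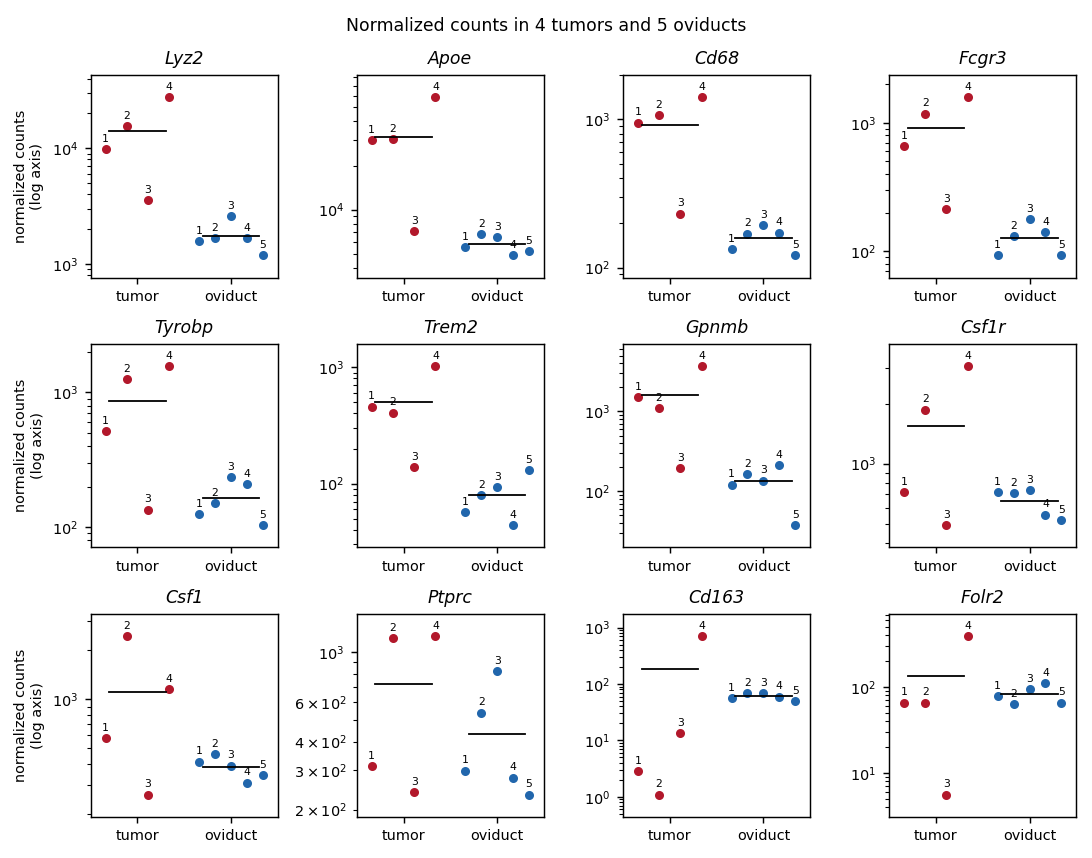
Normalized counts, on log axes, of 12 members in 4 tumors (red, left) and 5 oviducts (blue, right). Digits give the replicate number and lines the arithmetic mean. Lyz2, Apoe, Cd68, Fcgr3 and Trem2 have every tumor above every oviduct, tumor 3 is the lowest tumor in the first 10 panels, and Cd163 is below the oviducts in tumors 1 to 3 and above them in tumor 4.

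All 4 genes of Fc receptors and ITAM adaptors rose. Fcgr3, an activating receptor for IgG (ENSMUSG00000059498.13, chromosome 1, 171051174 to 171064935, minus strand), had 660.4, 1175.3, 211.7 and 1592.2 normalized counts in the tumors, against 93.8, 131.0, 177.1, 141.5 and 92.7 in the oviducts (2.36 ± 0.48, adjusted p = 0.00430). Each tumor lay above each oviduct. Fcgr1, the high-affinity IgG receptor, had 66.0, 441.7, 69.8 and 358.6 in the tumors, against 41.3, 57.6, 36.8, 60.5 and 52.5 in the oviducts (1.48 ± 0.51, adjusted p = 0.0487). Tumors 1 and 3 exceeded the highest oviduct by under 10 normalized counts. The adaptor genes overlapped, with tumor 3 within the oviduct range: Tyrobp (DAP12) had 516.6, 1249.1, 135.1 and 1564.9 in the tumors, against 103.8 to 236.8 in the oviducts (1.84 ± 0.59, adjusted p = 0.0371). Fcer1g, the shared gamma chain of Fc receptors, had 489.5, 1269.6, 168.9 and 1196.8 in the tumors, against 132.9 to 211.9 in the oviducts (1.61 ± 0.49, adjusted p = 0.0312). The calls of Fcer1g, Tyrobp and Fcgr1 ended in 7, 8 and 7 of the 9 fits that left out a library, in each case without tumor 2 and without tumor 4, while Fcgr3 passed in all 9.

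Of 3 pattern recognition and scavenging genes 2 rose. Cd14, the co-receptor for bacterial lipopolysaccharide, had 1199.4, 2652.7, 399.7 and 3700.8 normalized counts in the tumors, against 294.7, 372.8, 357.2, 421.3 and 314.8 in the oviducts (2.02 ± 0.52, adjusted p = 0.0142). Tumor 3 lay just under the highest oviduct. Msr1, a scavenger receptor for modified lipoproteins, had 132.1, 240.7, 46.2 and 664.6 in the tumors, against 27.9, 28.4, 36.8, 18.1 and 15.6 in the oviducts (2.25 ± 0.56, adjusted p = 0.0117), without overlap. Marco, another scavenger receptor, was near the detection limit, with 0.0 to 12.6 in tumors and 0.0 to 7.9 in oviducts, where 3 reads correspond to at most 3.41 normalized counts in a tumor and 3.35 in an oviduct.

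All 5 lipid- and lysosome-associated members rose, with a median change of 2.15. Gpnmb, a glycoprotein of lysosomal stress (ENSMUSG00000029816.10, chromosome 6, 49036546 to 49070929, plus strand), had 1510.1, 1102.6, 197.0 and 3672.4 normalized counts in the tumors, against 121.7, 165.5, 136.3, 213.8 and 38.0 in the oviducts. Its change of 2.94 ± 0.70 (adjusted p = 0.01) was the largest of the members, although tumor 3 lay below oviduct 4. Trem2, a lipid-sensing receptor that signals through the Tyrobp product (ENSMUSG00000023992.14, chromosome 17, 48346401 to 48354147, plus strand), had 457.4, 406.5, 137.4 and 1018.0 in the tumors, against 56.9, 79.4, 92.5, 44.0 and 129.5 in the oviducts (2.15 ± 0.47, adjusted p = 0.00627). The gap between tumor 3 and oviduct 5 was small, yet the groups did not overlap. Apoe, a lipid carrier (ENSMUSG00000002985.16, chromosome 7, 19696109 to 19699188, minus strand), had 29752.7, 30127.9, 7103.1 and 58952.5 in the tumors, against 5560.0, 6819.5, 6500.6, 4866.3 and 5209.4 in the oviducts (2.10 ± 0.49, adjusted p = 0.00903).

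Apoe was the most abundant member per exon length in both groups, with a mean of 14726 normalized counts per kb in tumors and 2709 in oviducts, followed by Lyz2 with 10796 and 1317 and Ctss with 2663 and 458. These 3 means each had tumors spread by 67.5% to 72.9% of the mean. Ctss, the cysteine protease cathepsin S of antigen-presenting cells, had 2581.3, 4713.8, 701.4 and 6470.8 in the tumors, against 539.1, 628.1, 991.1, 537.6 and 410.9 in the oviducts (2.16 ± 0.55, adjusted p = 0.0132). Lgmn, the asparaginyl protease legumain, had 690.2 to 4597.8 in tumors and 548.2 to 1080.5 in oviducts (1.55 ± 0.48, adjusted p = 0.0319). In both genes tumor 3 stood within the oviduct range, and the call of Lgmn ended in 6 of the 9 fits, among them those without tumor 1, 2 or 4.

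Of 7 members known from resident or alternatively activated macrophages 1 rose, against 6.53% of all genes. Their median change was 0.69, against -0.05 over all genes. Ms4a7, a four-span membrane protein of macrophages, had 133.0, 657.5, 207.2 and 900.2 normalized counts in the tumors, against 100.5, 98.8, 91.5, 93.5 and 61.4 in the oviducts (1.83 ± 0.48, adjusted p = 0.0153), without overlap. Cd163, the haemoglobin scavenger receptor of resident macrophages (ENSMUSG00000008845.9, chromosome 6, 124304656 to 124330527, plus strand), had 2.9, 1.1, 13.5 and 713.0 in the tumors, against 55.8, 68.1, 69.7, 59.7 and 49.1 in the oviducts. Tumors 1 to 3 lay below every oviduct, tumors 1 and 2 at or under 3 reads, and tumor 4 lay far above them. The change was -0.69 ± 0.97 (adjusted p = 0.631), opposite in sign to the difference of the means, 183 ± 354 in tumors and 60.5 ± 8.57 in oviducts (SD, n = 4 and 5). Without tumor 4 Cd163 fell by 1.98 on the log2 scale (adjusted p = 0.000539), the 1 member to fall, while 12 rose, against 13.3% of all genes lower and 8.16% higher. Per 100 counts of Csf1r, Cd163 held 0.405, 0.0608, 2.75 and 23.2 counts in the tumors, against 7.78 to 10.8 in the oviducts.

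Folr2, a folate receptor of resident macrophages, had 66.0, 65.9, 5.6 and 395.4 in the tumors, against 78.1, 63.6, 95.5, 111.6 and 65.9 in the oviducts (-0.17 ± 0.66, adjusted p = 0.874). Tumors 1 and 2 were at the low end of the oviducts, tumor 3 below them and tumor 4 above, and the difference turned positive without tumor 3 (0.52) and under quantile normalization (0.06). Mrc1 ranged over 254.4 to 2746.9 in tumors and 312.2 to 425.2 in oviducts (0.91 ± 0.52, adjusted p = 0.208). Siglec1, the sialic acid receptor sialoadhesin, had 32.7 to 626.8 in tumors and 78.6 to 127.3 in oviducts (0.56 ± 0.57, adjusted p = 0.493), and -0.08 without tumor 4. In both, tumor 4 was the highest library and tumor 3 the lowest. Vsig4, a complement receptor, had 2.9, 6.8, 0.0 and 48.4 in the tumors, against 0.0 to 4.5 in the oviducts.

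**Figure D3:**
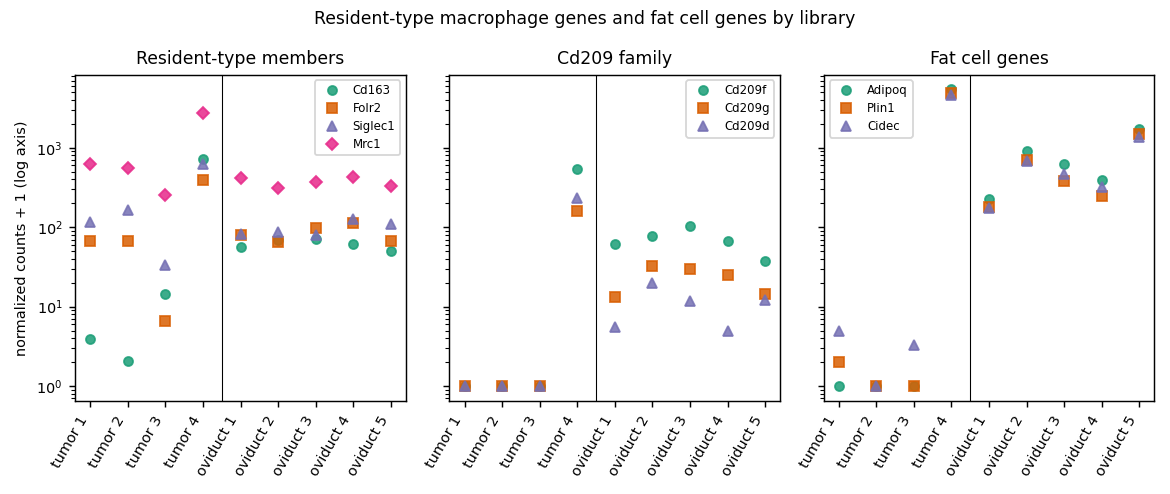
Normalized counts plus 1, on a log axis, of 4 resident-type members, of 3 Cd209 genes and of 3 fat cell genes, with the 4 tumors left of the line and the 5 oviducts right of it. The Cd209 and fat cell genes are at or near 0 in tumors 1 to 3, highest in tumor 4 and present in all oviducts, and Cd163 is at 1.1 to 13.5 normalized counts in tumors 1 to 3 and highest in tumor 4.

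Tumor 4 had both the highest Cd163 and the highest fat cell transcripts of the 9 libraries. That order was not kept elsewhere: among tumors 1 to 3 Cd163 was highest in tumor 3 (13.5), which had the lowest fat cell sum. Among oviducts Cd163 was lowest in oviduct 5 (49.1), which had the highest fat cell sum. Mrc1 and Siglec1 stood above every oviduct in tumors 2 and 4. The sum of 7 fat cell genes was 121.4, 7.9, 6.8 and 72686 in tumors 1 to 4, against 1607.4 to 10627.5 in the oviducts. Adipoq, which encodes adiponectin, was at 0.0 in tumors 1 to 3 and at 5427.6 in tumor 4, against 224.4 to 1703.7 in the oviducts. The part of fat tissue in the values of Cd163, Folr2, Siglec1, Mrc1 and Vsig4 was not tested. The lectin genes Cd209f, Cd209g and Cd209d had 0 reads in tumors 1 to 3, and 538.4, 159.9 and 233.5 normalized counts in tumor 4, against 36.8 to 103.5, 12.3 to 31.4 and 3.9 to 18.7 in the oviducts. None of them passed in the 4 tumors, and without tumor 4 they changed by -3.00, -1.88 and -1.27 (adjusted p = 3.75e-05, 0.000374 and 0.00405). The Cd209 genes were picked with their values in view, so the p-values without tumor 4 are no test of this pattern.

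Arg1, the arginase of alternatively activated macrophages in mouse (ENSMUSG00000019987.9, chromosome 10, 24915221 to 24927484, minus strand), had 345.7, 504.2, 122.7 and 2641.8 normalized counts in the tumors, against 19.0, 42.7 and 61.7 in the Dicer1+/D1693N oviducts and 257.0 and 198.7 in the Dicer1+/+ oviducts. Each tumor exceeded the 3 Dicer1+/D1693N oviducts, while tumor 3 lay below both Dicer1+/+ oviducts. The change against all oviducts was 2.34 ± 0.83 and missed the threshold (adjusted p = 0.0539). It passed against the Dicer1+/D1693N oviducts (3.18 ± 0.81, adjusted p = 0.0213) and not against the Dicer1+/+ oviducts (1.08 ± 0.92, adjusted p = 0.466), and the difference between these contrasts, which is that of Dicer1+/D1693N against Dicer1+/+ oviducts, was -2.10 ± 0.97 (adjusted p = 1, unadjusted p = 0.0578).

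The oxidase and costimulation members did not pass. Cybb, the catalytic subunit of the phagocyte NADPH oxidase, had 396.2, 991.4, 228.6 and 1404.0 normalized counts in the tumors, against 221.0, 231.3, 354.2, 209.1 and 189.8 in the oviducts (1.28 ± 0.45, adjusted p = 0.0538). Tumor 3 stood within the oviduct range and the other tumors above it, and the gene passed without tumor 3 (1.72, adjusted p = 0.00617). Cd86 and Cd83, a ligand for the T cell receptor CD28 and a surface protein of activated antigen-presenting cells, ranged over 22.5 to 190.8 and 111.5 to 307.7 in tumors, against 25.2 to 56.7 and 73.9 to 225.9 in oviducts, with changes of 0.89 ± 0.45 and 0.58 ± 0.36 (adjusted p = 0.159 and 0.251). By limma 0 of these 3 passed, and Cybb had an unadjusted p under 0.05.

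The genotypes of the oviducts were set apart in a 3-group model. Against the Dicer1+/D1693N oviducts 9 members rose in the tumors (5.17% of all genes) and 0 fell (11.4%): Apoe, Arg1, Cd14, Cd68, Fcgr3, Gpnmb, Laptm5, Lyz2 and Trem2. Against the Dicer1+/+ oviducts 8 rose (4.07% of all genes) and 0 fell (9.74%): Apoe, Cd68, Ctss, Fcgr3, Gpnmb, Laptm5, Lyz2 and Msr1. Both contrasts use the same tumors. Lyz2 changed by 2.54 ± 0.59 against Dicer1+/D1693N and by 2.97 ± 0.66 against Dicer1+/+ oviducts. Members with an unadjusted p under 0.05 numbered 19 and 18 in these contrasts. In each of them limma-voom called only 3 members higher and 0 lower. The number that rose by limma went down to 0 in at least 1 fit that left out a library, in each contrast, and was larger in others. Shares of all genes are not given here for the limma-voom and left-out fits, so these counts cannot be set apart from the calls of all genes. Between Dicer1+/D1693N and Dicer1+/+ oviducts 0 members were called by limma, against 0.00515% of all genes higher and 0.0154% lower. limma-voom called 0 as well, and 1 member, Cd83, had an unadjusted p under 0.05 (1.03 ± 0.40, adjusted p = 1), with 189 ± 47.0 normalized counts in Dicer1+/D1693N and 81.0 ± 10.1 in Dicer1+/+ oviducts (SD, n = 3 and 2).

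**Figure D4:**
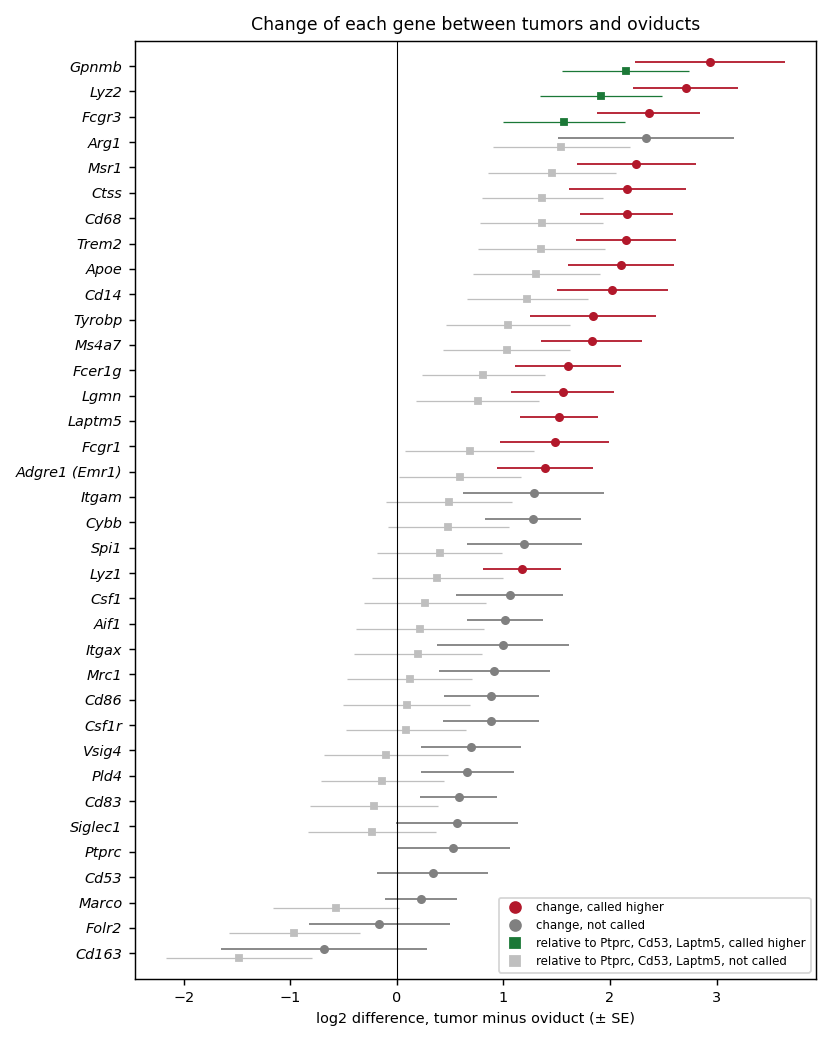
Change of each of the 36 members, tumor minus oviduct, as a log2 difference with its SE (circles), and the same relative to the mean of Ptprc, Cd53 and Laptm5 in each library (squares). Red circles are the 17 genes that rose, and green squares mark Gpnmb, Lyz2 and Fcgr3, which also rose relative to the pan-leukocyte genes.

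To ask whether a member differed beyond the level of leukocyte transcripts in the same library, every gene was set relative to the mean log2 value of Ptprc, Cd53 and Laptm5. Laptm5 itself rose in the tumors, and a reference that is higher in tumors lowers the change of every gene set against it. The reference also covers lymphocytes. Its mean log2 value was 9.39 and 9.04 in oviducts 3 and 2, against 8.38 to 8.68 in the other oviducts. The B cell gene Ighm had 21364.6 and 11098.0 normalized counts in oviducts 3 and 2, against 433.1 to 2277.1 in the others. The part of lymphocytes in the reference was not tested. Of the 33 other members 3 rose, against 0.998% of all genes, and 0 fell, against 16.2%, and the median change was 0.49 over the members and -0.84 over all genes. Gpnmb changed by 2.15 ± 0.60 (adjusted p = 0.00771), Lyz2 by 1.91 ± 0.57 (adjusted p = 0.0135) and Fcgr3 by 1.57 ± 0.58 (adjusted p = 0.0490). On this scale Lyz2 stood at 3.57 to 4.07 in tumors and 1.68 to 2.05 in oviducts, so that tumor 3, with 3.57, was close to the other tumors. Fcgr3 stood at -0.37 to 0.19 in tumors and -1.80 to -1.34 in oviducts. Csf1r, Spi1, Pld4 and Mrc1 differed by 0.09, 0.40, -0.14 and 0.12 on this scale, each within 1 SE.

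The call of Fcgr3 ended in 8 of 9 fits without a library and held without tumor 3, and that of Lyz2 ended without oviduct 2 (adjusted p = 0.0571). Relative to Spi1, Csf1r and Tyrobp in place of the pan-leukocyte genes, Gpnmb alone rose (1.64, adjusted p = 0.0494) and Cd163 fell by 1.99 (adjusted p = 0.0298). This reference holds Tyrobp, which itself rose, and its mean log2 value was 8.63, 10.19, 7.63 and 10.49 in tumors 1 to 4, against 7.57 to 8.29 in oviducts. Changes relative to it are therefore lowered for every gene. Per 100 counts of Csf1r, Gpnmb held 210, 59.1, 40.0 and 119 counts in the tumors, against 7.31 to 38.5 in the oviducts, and Trem2 63.6, 21.8, 27.9 and 33.1 in the tumors, against 7.93 to 24.9 in the oviducts. Gpnmb did not overlap in this ratio, whereas Trem2 in tumor 2 lay below oviduct 5.

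Of 106 other genes of macrophage pathways that were measured, 33 rose and 1 fell, against 6.53% and 12.1% of all genes. Without tumor 3, 50 rose (7.53% of all genes). Without tumor 4, 9 fell (13.3% of all genes), and with the 3 Dicer1+/D1693N oviducts alone 18 rose (4.43% of all genes). Among the genes of colony-stimulating factors, Csf3r, the receptor of the granulocyte factor, rose, with 179.7, 1079.9, 99.1 and 561.6 in the tumors, against 15.6 to 49.8 in the oviducts (2.87 ± 0.58, adjusted p = 0.00427).

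In the ITAM signaling list 5 of 21 rose. Lcp2, which encodes the adaptor SLP-76, had 113.7 to 353.2 in tumors and 46.9 to 107.5 in oviducts (1.35 ± 0.34), without overlap. The inhibitory receptor genes Fcgr2b and Cd300a rose as well: Fcgr2b had 207.2 to 2207.4 in tumors and 116.1 to 252.7 in oviducts, and Cd300a 117.1 to 344.9 and 38.0 to 99.5 (adjusted p = 0.0243 and 0.00563). The call of Fcgr2b ended without tumor 2, oviduct 4 or oviduct 5. Trem1, an activating receptor of neutrophils and monocytes, had 44.7, 258.9, 0.0 and 115.7 in the tumors, against 0.0 to 2.2 in the oviducts (2.61 ± 0.76, adjusted p = 0.0248), and its call ended in 6 of the 9 fits without a library, among them those without tumor 2 or 4. Fcgr2b and Fcgr3 are close paralogs, and reads between them can be split. Of 6 NADPH oxidase genes 2 rose: Cyba, the partner subunit of Cybb, with 556.2 to 2474.5 in tumors and 360.6 to 586.4 in oviducts (1.43 ± 0.39), and Ncf1, a cytosolic subunit, with 123.8 to 729.8 and 58.1 to 169.2 (1.44 ± 0.49). The call of Cyba ended without tumor 2, and that of Ncf1 in 6 of 9 such fits, among them those without tumor 2 or 4.

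Of 22 lysosome and lipid genes 8 rose. Spp1, which encodes osteopontin, had 6871.7, 37610.2, 2735.9 and 31947.1 normalized counts in the tumors, against 54.7, 114.5, 77.6, 1520.2 and 65.9 in the oviducts (6.20 ± 1.01, adjusted p = 0.00110). Every tumor exceeded every oviduct, and oviduct 4 was the highest oviduct. The protease genes Ctsd and Ctsk and the lysosomal acid lipase Lipa were high in all 4 tumors, tumor 3 included: Ctsd had 17543.5 to 28656.2 in tumors and 4345.2 to 9871.8 in oviducts (1.92 ± 0.26), Ctsk 438.0 to 1401.9 and 130.4 to 367.1 (1.87 ± 0.36), and Lipa 776.8 to 1405.0 and 212.1 to 334.9 (1.77 ± 0.19).

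In the list of other macrophage genes 16 of 42 rose and 1 fell. Slc40a1, the iron exporter ferroportin, had 1709.2, 1816.9, 1102.2 and 2465.1 in the tumors, against 183.1 to 329.4 in the oviducts (2.65 ± 0.24, adjusted p = 2.06e-05). Hmox1, the haem oxygenase that frees iron from haem, had 3075.6, 915.3, 460.5 and 2484.0 in the tumors, against 112.4 to 179.2 in the oviducts (3.07 ± 0.48, adjusted p = 0.000886). These genes did not overlap between groups. The lectin gene Clec4n (Dectin-2) had 76.6 to 902.3 in tumors and 11.0 to 21.9 in oviducts (3.39 ± 0.56), and Mmp12, the macrophage elastase, 9.0 to 3200.2 and 0.0 to 68.7 (3.75 ± 1.15, adjusted p = 0.0304). Mmp12 in tumor 3 lay within the oviduct range, and its call ended in 7 of the 9 fits without a library, among them those without tumors 1, 2 or 4. Retnla, a secreted protein of alternatively activated macrophages in mouse, had 1.0, 0.0, 12.4 and 56.8 in the tumors, against 62.1 to 119.5 in the oviducts (-1.96 ± 0.51, adjusted p = 0.0149), the 1 gene that fell. It was highest in oviduct 5 among oviducts and in tumor 4 among tumors, each with the highest fat cell sum of its group. Tumor 4, with the highest fat cell sum of all, still lay below every oviduct. The part of fat tissue in the values of Retnla was not tested.

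Lists of neutrophil, osteoclast and endothelial genes also held genes that rose, as 6.53% of all genes did. Of 12 neutrophil genes 5 rose, and S100a9, an abundant calcium-binding protein of neutrophils, had 607.0, 4316.3, 25.9 and 3675.5 normalized counts in the tumors, against 0.0 to 3.9 in the oviducts (5.83 ± 1.13, adjusted p = 0.00326). The other 7 did not pass, among them Ly6g, Mpo, Elane and Camp. Mmp8, also not called, changed in the other direction, with 0.0 to 259.8 in tumors and 194.2 to 334.9 in oviducts (-1.85 ± 0.74, adjusted p = 0.0822). The sum of the list was 4726.4 to 106186 in tumors and 6022.1 to 25438.4 in oviducts, with tumors 2 and 4 highest and tumor 3 lowest. Most of it was Ltf (lactoferrin, 4585.7 to 94984.2 in tumors and 5651.5 to 25109.0 in oviducts). Ltf was thus abundant in oviducts where S100a9 was at most 3.9, so the sum follows Ltf and does not by itself rank the libraries by neutrophils. Apart from Ltf, S100a8 had 409.8, 2962.7, 6.8 and 3645.0 in tumors 1 to 4, and Cxcr2 42.7, 350.9, 5.6 and 214.5. Like S100a9, both were highest in tumors 2 and 4 and lowest in tumor 3. Mpo, Elane, Camp and Ngp stood at 320.8, 116.7, 657.3 and 1329.3 in tumor 4 and at most at 60.2 in every other library. Lyz2, Itgam, Fcer1g, Tyrobp, Fcgr3, Cybb, Cd14 and Spi1 are also known from neutrophils, and the part of those cells in their values was not tested. Of 7 osteoclast genes 2 rose (Atp6v0d2 and Ctsk), with sums of 678.9 to 5395 in tumors and 430.9 to 624.1 in oviducts. Of 6 endothelial genes 5 rose, with sums of 10296.9, 8190.9, 9545.1 and 4822.9 in tumors 1 to 4 and 2061.7 to 3699.2 in oviducts. Here tumor 4, the highest tumor in most members, was the lowest tumor.

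Lymphoid and dendritic lists showed no rise by limma. Of all genes 6.53% were higher and 12.1% lower, so 0 calls in a list of 9 or 12 genes does not set it apart from other genes. Of 12 T and NK cell genes 0 passed, also at an unadjusted p under 0.05, and the sum was 92.3 to 774.5 in tumors and 67.6 to 425.9 in oviducts. Of 9 B and plasma cell genes 0 rose and Pax5 fell (-1.14 ± 0.39, adjusted p = 0.0455, lost in 7 of the 9 fits without a library), with sums of 1248.6 to 37994.1 in tumors and 955.8 to 38560 in oviducts. Of 9 dendritic cell genes 0 passed, 1 at an unadjusted p under 0.05, with sums of 303 to 1286.2 in tumors and 465.6 to 743.3 in oviducts. Of 8 mast cell genes 6 fell, among them the chymase gene Mcpt4, with 11.7, 0.0, 0.0 and 18.9 in the tumors and 56.9 to 110.5 in the oviducts (-2.32 ± 0.41, adjusted p = 0.00184). Hdc, the histidine decarboxylase, had 373.3 to 4750.1 in tumors and 3751.0 to 6192.1 in oviducts, and its call ended in 7 of the 9 fits without a library, among them those without tumor 1 or 4.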

How the data were processed

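Poly-A RNA libraries of 4 tumors and 5 oviducts were analysed. The submitters' processing notes name FastQC 0.11.5, STAR 2.5.3a and HTSeq with GRCm38 (mm10). The transformation, annotation and strandedness of the counting are not given in the sources used here. The authors deposited 1 table of log2 values for 19435 genes, with a shared floor of 3.427. Undoing a variance-stabilizing transformation returned whole reads (tolerance 0.05) in 100% of cases, and hence totals, size factors and normalized counts. Floors of 3 counts cover counting error only. A difference on the deposited scale understates the change of genes with few reads.

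The deposited log2 values were tested by limma 3.58.1 in R 4.3.3 (trend in the prior variance, two-sided, Benjamini-Hochberg over 19435 genes), and the script was tested on simulated data. Calls required an adjusted p under 0.05 and a log2 change of 1 or more in size. Gene positions and exon lengths came from GENCODE M21. Named genes were all measured members, up to 4 called genes per list and direction by size of change, abundant markers of other cell types and markers at 0. The members, lists and roles were chosen with earlier results of these data known. Il34, the Cd209 genes and the ratios to Csf1r were picked with their values in view. A result of the lineage list is not reported here. Alternatives changed the scaling, test, pseudocount, filter, variance model, controls, anchor and libraries. The labels give no batch, and deviations of same-numbered libraries correlated at -0.089 to 0.117, so no pairing was used.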

Additional observations from a re-analysis of the deposited data

Results flagged for a closer look

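Among 72 groups of member values, 36 in tumors and 36 in oviducts, 3 held a library whose gap to the nearest one was large for the range of its group, a mark that chance gives about 1 in 20 groups. Itgax was 22.5 normalized counts in tumor 3, against 320.2 to 398.6 in the other tumors. Fcer1g was 132.9 in oviduct 5 and Ms4a7 61.4 in the same library, against 187.5 to 211.9 and 91.5 to 100.5 in the other oviducts.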

How the results depend on the processing

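Of the 17 members that rose, 11 kept the call in all 9 fits that left out a library, and none reversed in any fit. Between 11 and 27 members rose in these fits and 0 to 1 fell (Cd163, without tumor 4), with 27 without tumor 3 and 11 without tumor 2, oviduct 2 or oviduct 5. Of other macrophage pathway genes 23 to 50 rose and 1 to 9 fell. With fewer controls, 6 members and 18 pathway genes rose against Dicer1+/D1693N oviducts alone, and 0 and 5 against Dicer1+/+ oviducts alone with 0 pathway genes lower in both. Without tumors 1 and 4, 7 members rose and 1 fell, and 20 pathway genes rose and 10 fell, with Cd53, Marco and Siglec1 at -0.13, -0.22 and -0.24. Without a minimum change 2 pathway genes fell. In the 3-group model limma-voom called 3 members against each genotype, and leaving out a library gave 0 to 24 higher against Dicer1+/D1693N and 0 to 22 against Dicer1+/+ oviducts, with 0 to 1 lower. Relative to pan-leukocyte genes 1 to 11 rose and 0 to 1 fell without a library, and 1 rose and 1 fell with the other anchor. Shares of all genes are not given here for these fits of the 3-group model and of the anchors. A low or high count of members in them therefore cannot be set apart from the calls of all genes. Marco was -0.15 against Dicer1+/+ oviducts. Differences ranged over -0.11 to 0.91 (Cd53), -0.90 to 0.52 (Folr2) and -0.080 to 1.13 (Siglec1) without a library. Quantile normalization moved the median of all genes to 0.078, turned Folr2 to 0.058 and gave 1696 higher and 1943 lower genes in place of 1269 and 2356. With the replicate number as a block, which the labels and values do not tie to pairs, 12 members rose. The cause of these shifts was not tested. Between the oviduct genotypes 0 members were called in every fit. Depth limits Marco and Vsig4, which lie near 3 reads in most libraries.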
